A study of Mus musculus with 11 samples.

Results

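Polycomb repressive complexes are groups of proteins that keep developmental genes silent. The 10 genes described here encode subunits of these complexes and were taken by symbol. They are the Polycomb repressive complex 2 (PRC2) core genes Ezh2, Ezh1, Eed and Suz12, the PRC2 accessory genes Jarid2, Mtf2, Phf1 and Phf19, and the PRC1 genes Rybp and Cbx7. All 10 were found among the 19935 genes with a single symbol on the array. They were measured in mouse embryonic stem cells (ESCs) on 11 one-colour Affymetrix arrays in 4 groups. Mutant cells, labelled Bmpr1a-/- (the gene encodes a receptor of the BMP signalling pathway), had spent 3 days in the serum-free differentiation medium N2B27 (n = 3) or were kept in ESC medium (n = 2, sample numbers 2 and 3). Control cells were wild type, of the E14 line, and had likewise spent 3 days in N2B27 (n = 3) or were kept in ESC medium (n = 3). The labels name 3 mutant lines, C1-6, Fr124 and Fr88, without saying which was on which array, so genotype cannot be told apart from line, nor medium from the time spent in it. A mutant array numbered 1 in ESC medium was not analysed here. Nothing in the labels tells separate cultures from repeat preparations, so each p-value reflects array-to-array spread that could be technical only.

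PRC2 places methyl groups on a lysine in the tail of histone H3. Ezh2 and Ezh1 are its alternative catalytic subunits, Eed reads the mark and stimulates the enzyme, and Suz12 holds the complex together. Jarid2 and the Polycomb-like proteins Mtf2, Phf1 and Phf19 bring PRC2 to CpG-rich DNA. PRC1 ubiquitinates histone H2A, and in it Cbx7 reads the PRC2 mark while Rybp marks the variant complexes that do not need that reader. In ESCs these complexes hold lineage genes silent, Ezh2 is the main catalytic subunit of dividing cells, and Ezh1 is better known from cells that divide less.

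The promoters of genes from both directions of the medium response are shown first, with the main catalytic gene Ezh2 beside them. Each window runs from 250 bases before to 50 after the start site, in the direction of the gene, from RefSeq on GRCm38.p6. The windows are chr11:101226414-101226713 (minus strand) for Ezh1, chr6:47594981-47595280 (minus strand) for Ezh2, chr7:89980927-89981226 (minus strand) for Eed and chr5:108065424-108065723 (plus strand) for Mtf2. Capitals mark matches, on either strand, to the CCAAT box (CCAAT), the GC box (GGGCGG) or an E2F site (TTTGGCGC).
Ezh1: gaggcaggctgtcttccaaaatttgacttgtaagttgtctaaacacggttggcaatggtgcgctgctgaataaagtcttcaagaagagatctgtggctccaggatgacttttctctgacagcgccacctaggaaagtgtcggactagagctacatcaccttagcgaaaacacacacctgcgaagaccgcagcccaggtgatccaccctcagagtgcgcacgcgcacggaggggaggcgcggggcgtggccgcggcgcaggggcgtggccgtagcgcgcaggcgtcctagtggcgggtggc
Ezh2: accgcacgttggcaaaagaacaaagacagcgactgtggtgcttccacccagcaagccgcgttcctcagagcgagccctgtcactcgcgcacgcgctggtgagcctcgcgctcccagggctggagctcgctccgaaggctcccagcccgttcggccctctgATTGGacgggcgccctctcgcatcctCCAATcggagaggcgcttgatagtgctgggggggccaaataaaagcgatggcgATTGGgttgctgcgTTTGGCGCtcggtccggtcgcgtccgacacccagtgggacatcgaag
Eed: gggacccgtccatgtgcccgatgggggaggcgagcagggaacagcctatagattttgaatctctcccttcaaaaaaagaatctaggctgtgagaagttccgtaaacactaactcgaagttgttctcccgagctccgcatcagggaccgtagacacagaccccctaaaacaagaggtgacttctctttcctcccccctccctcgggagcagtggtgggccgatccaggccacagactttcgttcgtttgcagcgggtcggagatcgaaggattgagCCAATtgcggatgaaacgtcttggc
Mtf2: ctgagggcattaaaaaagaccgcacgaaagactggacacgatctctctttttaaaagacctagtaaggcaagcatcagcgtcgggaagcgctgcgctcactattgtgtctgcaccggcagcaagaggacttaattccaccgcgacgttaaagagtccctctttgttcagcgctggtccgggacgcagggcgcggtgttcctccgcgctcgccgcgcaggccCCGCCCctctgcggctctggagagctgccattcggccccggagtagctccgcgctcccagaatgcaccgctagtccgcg

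Windows were listed for 9 of the 10 genes, 11 windows in all, and Rybp was the gene without one. The Ezh1 window held 23 CpG dinucleotides, that of Ezh2 31, that of Eed 17 and that of Mtf2 30, against a median of 7 over all 32851 windows of this length. The quartiles over all windows were 3 and 20, and the Eed window lay between them. The Ezh2 window had 3 CCAAT boxes, the nearest at -11, and the single E2F match among the member windows, which begins 3 bases after the start site. A CCAAT box was present in 37.4% of all windows, a GC box in 35.7% and the E2F site in 0.514%. Eed had 1 CCAAT box, at 25 bases past the start, and Ezh1 had no match to any of the 3. The Mtf2 window shown had 1 GC box, at -29. A further Mtf2 window, chr5:108077915-108078214, is not shown, and it held 2 CpG dinucleotides, 3 CCAAT boxes and no GC box. The E-box (CACGTG, 7.15% of windows), the octamer (ATGCAAAT, 1.74%), an ETS site (CCGGAAGT, 3.89%) and the palindromic NRF1 site (0.971%) had no match in any of the 11 member windows. These matches are letters in a window and were not read as bound sites.

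The expression values are log2 values that the authors centred on a baseline of each gene. They can be compared between arrays but not between genes, and the level of a gene is unknown. A log2 difference of 1 is a doubling. Differences come from limma fitted jointly to the 4 groups, with the moderated standard error (SE), two-sided tests and Benjamini-Hochberg adjustment over all 19935 genes, and a gene was called at an adjusted p under 0.05. The number of arrays limits the precision. Bmpr1a differed between mutant and control by -0.70 in N2B27 (adjusted p = 0.00211) and by -0.27 in ESC medium (adjusted p = 0.145), and the labels do not name the deleted part of the gene. The labelled cell type could not be checked as a level in centred values, but all 8 ESC marker genes fell in N2B27 in both genotypes. Their mean centred value was -0.31 to -0.27 in mutant and -0.94 to -0.81 in control arrays in N2B27, against 1.69 in both mutant arrays and 1.03 to 1.36 in control arrays in ESC medium. Mutant replicate 2 in N2B27 stood apart, with a root mean square deviation from its group mean of 0.185 against 0.0774 to 0.155 for the other arrays.

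**Figure D1:**
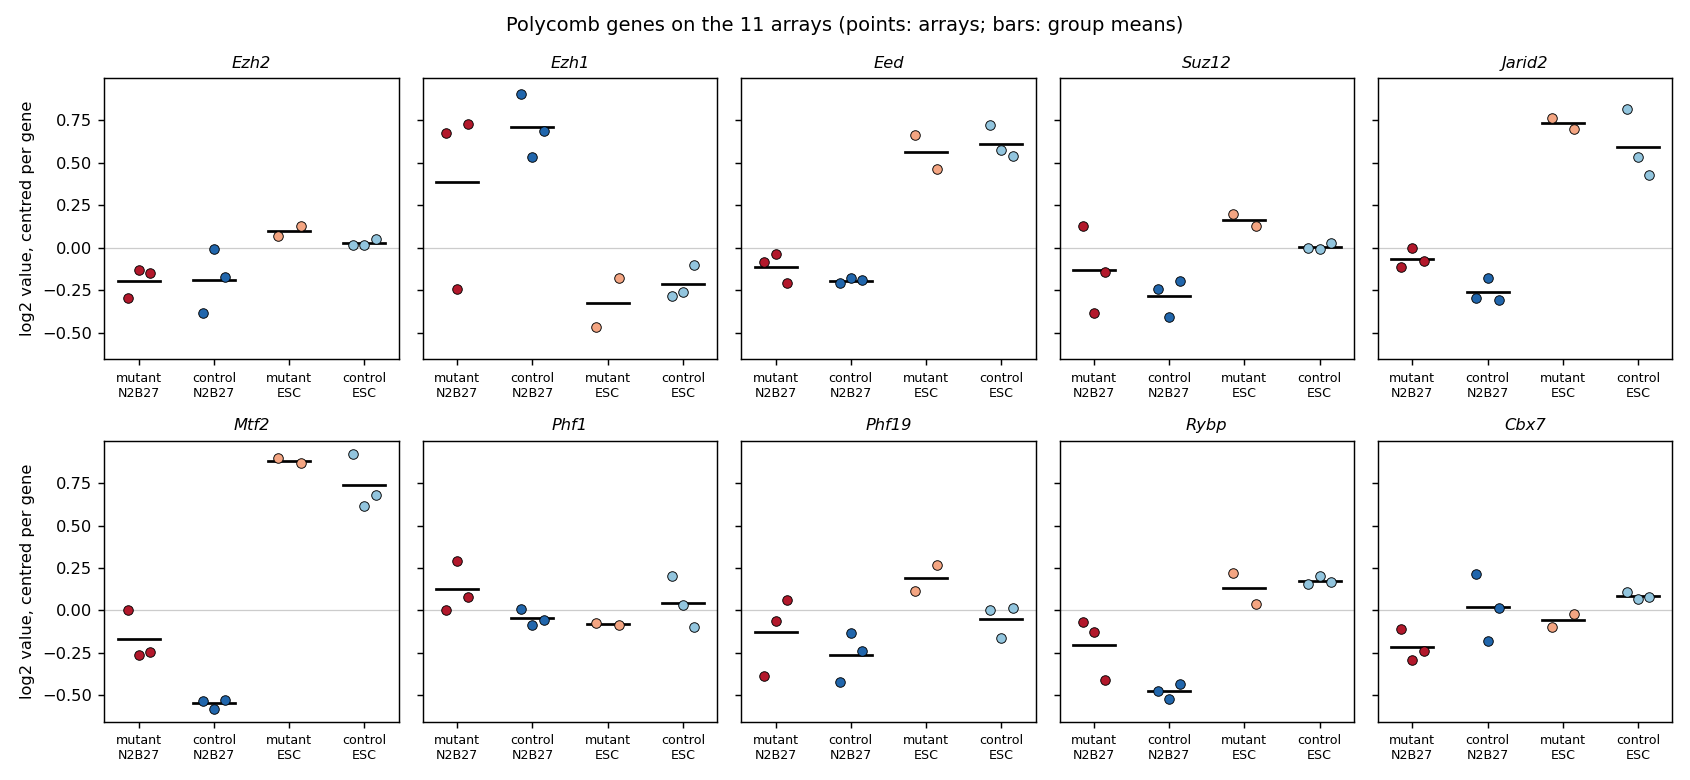
Each panel plots 1 gene, with the centred log2 value on the y axis and the 4 groups on the x axis. Points are arrays and bars are group means. Mtf2, Jarid2 and Eed lie lower on all N2B27 arrays than on all ESC-medium arrays, Ezh1 lies higher on 5 of the 6 N2B27 arrays, and mutant replicate 2 in N2B27 is the exception at -0.25.

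What N2B27 does to these genes was asked in the mutant cells and in the control cells, which share no arrays. Both tests use 1 estimate of each gene's spread from all 4 groups, so their calls are not independent. Eed, Jarid2, Mtf2 and Rybp fell in N2B27 in both genotypes, and Ezh1 rose in control cells. Of the gene values, Mtf2 had the widest change, at 2.07-fold lower in mutant cells and 2.44-fold lower in control cells. Those are log2 differences of -1.05 and -1.28. The value of Eed is the mean of 2 transcript clusters, described below. One cluster alone, 10565486, changed more than Mtf2, by -1.24 in mutant and -1.49 in control cells. Of the 10 genes, 4 fell and none rose in mutant cells, where 25.2% of all genes were called, 10.3% lower and 14.9% higher. In control cells 4 fell and 1 rose, where 26.1% of all genes were called, 13.3% lower and 12.8% higher. The median difference of the 10 genes was -0.31 in mutant and -0.25 in control cells, beside 0.01 and 0.02 over all genes. The ESC markers fell on the same arrays, by medians of 1.95 in mutant and 1.52 in control cells. Of 8 neural progenitor markers 2 rose in mutant and 1 in control cells, and of 8 primitive endoderm markers 2 rose in mutant and 1 in control cells. Of 8 fibroblast and feeder markers 2 rose in mutant cells, and 2 rose and 1 fell in control cells. Of 8 trophoblast markers 3 rose and 1 fell in mutant cells, and 0 rose and 2 fell in control cells, with medians of 0.14 and -0.17. The part of these cell types in the result was not tested. In bulk samples, fewer cells of a type and less RNA per cell cannot be told apart.

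Of the catalytic pair, Ezh1 was called in control cells and Ezh2 in neither genotype, and the contrast between the genes was not tested. Ezh2 read -0.30, -0.13 and -0.15 on the mutant arrays in N2B27 and 0.07 and 0.13 on those in ESC medium. In control cells it read -0.38, -0.01 and -0.17 in N2B27 and 0.02, 0.02 and 0.05 in ESC medium. Every N2B27 array was thus below every ESC-medium array of its genotype. Arrays of the media did not overlap, in either direction, for 43.5% of all genes in mutant and 43.9% in control cells. The differences were small, at -0.29 (SE 0.10, adjusted p = 0.0565) in mutant and -0.22 (SE 0.09, adjusted p = 0.112) in control cells, and neither was called. The mutant value was called with each array centred on its median (adjusted p = 0.0421), after quantile normalization (0.0212), with array weights (0.0272), and without control replicate 1 (0.0204) or 2 (0.0291) in N2B27. The control value was called without control replicate 2 in N2B27 (-0.31, adjusted p = 0.0268).

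Ezh1 rose in control cells. It read 0.68, -0.25 and 0.73 on the mutant arrays in N2B27 and -0.47 and -0.18 on those in ESC medium. In control cells it read 0.90, 0.54 and 0.68 in N2B27 and -0.28, -0.26 and -0.10 in ESC medium. The control groups do not overlap, while mutant replicate 2 in N2B27 lay within the range of the ESC-medium arrays. The rise was 0.92 in control cells (SE 0.23, adjusted p = 0.0127), or 1.90-fold. In mutant cells the difference was 0.71 (SE 0.25, adjusted p = 0.0661), not called, with a 95% interval from 0.15 to 1.27. Without mutant replicate 2 in N2B27 it was 1.03 (adjusted p = 0.00045), and with array weights, which gave that array a weight of 0.235, it was 0.98 (adjusted p = 0.000619).

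Eed, the reader of the mark, fell by 0.67 in mutant cells (SE 0.08, adjusted p = 0.000325) and by 0.81 in control cells (SE 0.08, adjusted p = 7.89e-05). These are means of 2 transcript clusters, the array's unit for a gene or part of one, and the clusters disagree. Cluster 10565486, annotated with 5 transcripts including the RefSeq one, read 0.00, -0.16 and -0.39 on mutant arrays in N2B27 and 1.19 and 0.92 in ESC medium. On control arrays it read -0.39, -0.37 and -0.37 in N2B27 and 1.25, 1.02 and 1.07 in ESC medium. Its differences were -1.24 (adjusted p = 0.00016) and -1.49 (adjusted p = 5.17e-05) in mutant and control cells. Cluster 10554837, annotated with 1 cDNA, differed by -0.11 (adjusted p = 0.467) and -0.12 (adjusted p = 0.326). The gene's value is the mean of a cluster that fell by more than 1 and one that was not called.

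Suz12, the scaffold of the core, read 0.13, -0.38 and -0.14 on mutant arrays in N2B27 and 0.20 and 0.13 in ESC medium. In control cells it read -0.24, -0.41 and -0.19 in N2B27 and 0.00, -0.01 and 0.03 in ESC medium. The control groups are apart, and the mutant groups meet at mutant replicate 1 in N2B27. The differences were -0.30 (SE 0.13, adjusted p = 0.125) in mutant and -0.29 (SE 0.11, adjusted p = 0.0924) in control cells, neither called. With the sample number as a replicate block the control value was called (-0.29, adjusted p = 0.0255), as it was with array weights (0.00824), with the 2 control groups alone (0.0188) and without mutant replicate 1 (0.0243) or 2 (0.0241) in N2B27. The mutant value was called without mutant replicate 1 in N2B27 (-0.43, adjusted p = 0.0119) and with array weights (adjusted p = 0.0193).

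**Figure D2:**
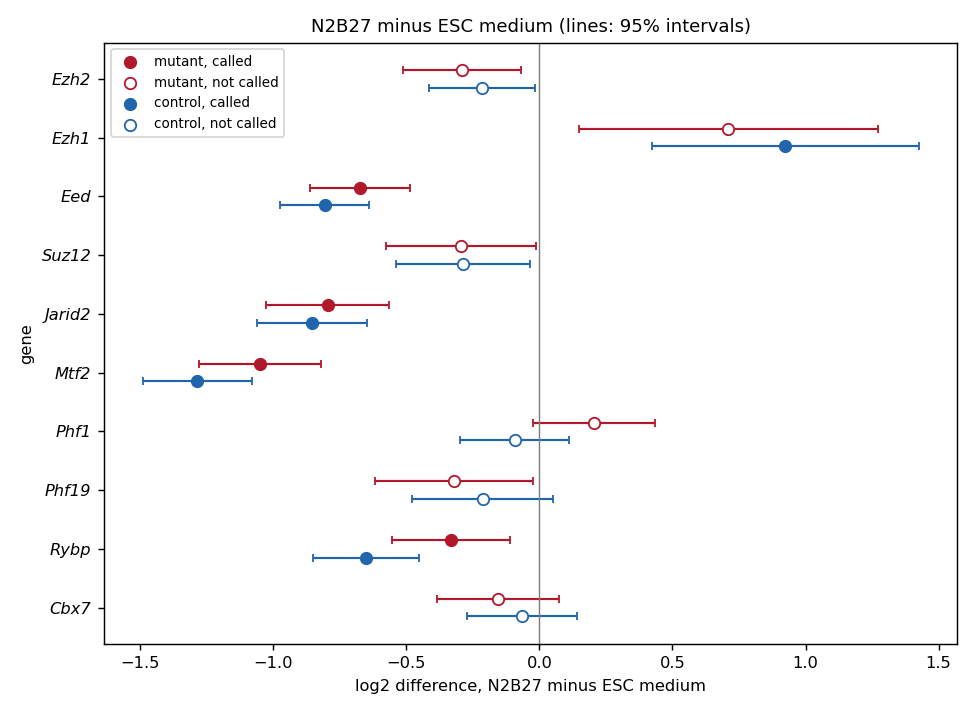
Log2 differences between N2B27 and ESC medium (x axis) for the 10 genes (y axis), in mutant cells (red) and control cells (blue), with 95% intervals; filled points were called. Eed, Jarid2, Mtf2 and Rybp are filled left of 0 in both genotypes, and Ezh1 is filled right of 0 in control cells.

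Of the accessory genes, Mtf2 and Jarid2 fell and the Polycomb-like relatives of Mtf2 were not called. Mtf2 read 0.00, -0.26 and -0.24 on mutant arrays in N2B27 and 0.90 and 0.87 in ESC medium. On control arrays it read -0.53, -0.58 and -0.53 in N2B27 and 0.92, 0.61 and 0.68 in ESC medium. No N2B27 array reached the lowest ESC-medium array. It fell by 1.05 in mutant cells (SE 0.10, adjusted p = 9e-05) and by 1.28 in control cells (SE 0.09, adjusted p = 2.27e-05).

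Jarid2, which recruits PRC2 and tunes its activity, read -0.12, 0.00 and -0.08 on mutant arrays in N2B27 and 0.77 and 0.70 in ESC medium. On control arrays it read -0.30, -0.18 and -0.31 in N2B27 and 0.82, 0.53 and 0.43 in ESC medium. The media are again apart in both genotypes. The gene fell by 0.80 in mutant cells (SE 0.10, adjusted p = 0.00043) and by 0.85 in control cells (SE 0.09, adjusted p = 0.00018), or 1.74-fold and 1.81-fold. With any 1 array left out the falls of Mtf2, Jarid2 and Eed were called in both genotypes, with adjusted p up to 0.00221, 0.0081 and 0.00638.

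Phf1 and Phf19, the other Polycomb-like genes, differed less. Phf1 had values of 0.00, 0.29 and 0.08 on mutant arrays in N2B27 and of -0.07 and -0.09 in ESC medium, a difference of 0.20 (SE 0.10, adjusted p = 0.194). In control cells it differed by -0.09 (SE 0.09, adjusted p = 0.569), with overlapping groups. Phf19 had values of -0.39, -0.06 and 0.06 on mutant arrays in N2B27 and of 0.12 and 0.27 in ESC medium, a difference of -0.32 (SE 0.13, adjusted p = 0.114). In control cells its difference was -0.21 (SE 0.12, adjusted p = 0.247). The intervals reach -0.62 for Phf19 in mutant cells and 0.43 for Phf1 in mutant cells, so moderate changes of these genes were not resolved.

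Of the PRC1 genes, Rybp fell and Cbx7 was not called. Rybp read -0.07, -0.13 and -0.41 on mutant arrays in N2B27 and 0.22 and 0.04 in ESC medium. On control arrays it read -0.48, -0.52 and -0.43 in N2B27 and 0.16, 0.21 and 0.17 in ESC medium. The media do not overlap in either genotype. It fell by 0.33 in mutant cells (SE 0.10, adjusted p = 0.0332) and by 0.65 in control cells (SE 0.09, adjusted p = 0.000583). The mutant call ended when mutant replicate 2 (-0.24, adjusted p = 0.268) or control replicate 2 (-0.33, adjusted p = 0.0501) in ESC medium was left out, without mutant replicate 3 in N2B27 (-0.23, adjusted p = 0.0673), with the 2 mutant groups alone (adjusted p = 0.153) and after quantile normalization (adjusted p = 0.0796).

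Rybp also has 2 clusters, annotated with the same 6 transcripts, and this annotation does not tell them apart. Where each cluster lies in the genome was not checked. In control cells cluster 10546706 differed by -0.80 (adjusted p = 0.000253) and cluster 10410209 by -0.51 (adjusted p = 0.0101), both called. In mutant cells neither was called, at -0.27 (adjusted p = 0.0655) and -0.39 (adjusted p = 0.051). Cbx7 read -0.11, -0.29 and -0.24 on mutant arrays in N2B27 and -0.10 and -0.02 in ESC medium, a difference of -0.16 (SE 0.10, adjusted p = 0.35). In control cells the difference was -0.07 (SE 0.09, adjusted p = 0.719).

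**Figure D3:**
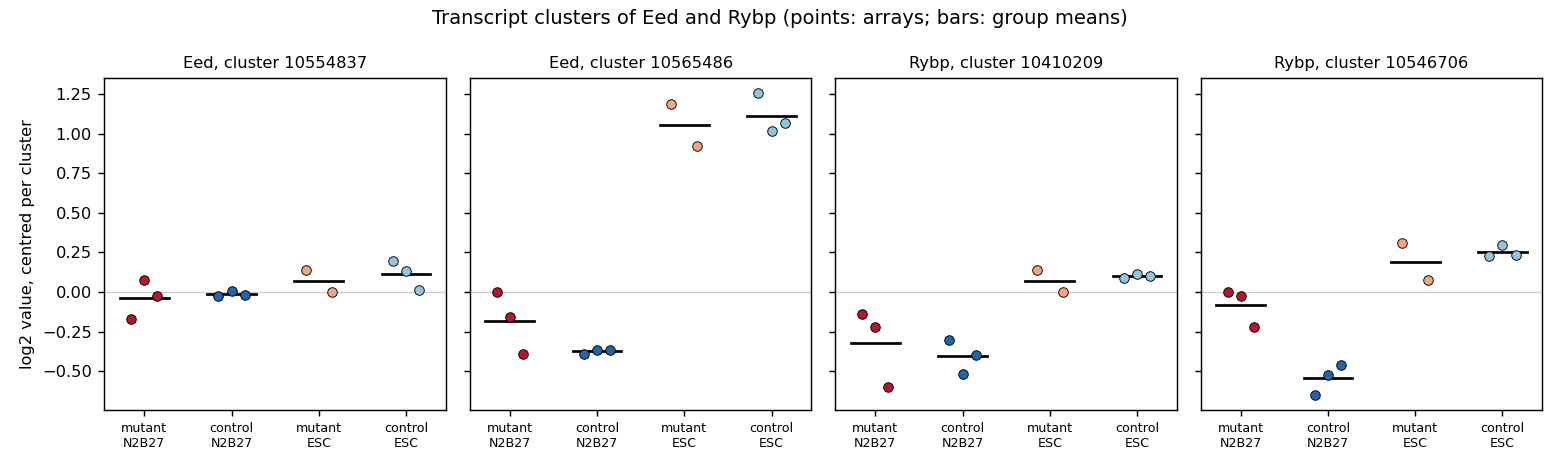
Centred log2 values (y axis) of the 4 transcript clusters of Eed and Rybp in the 4 groups (x axis); points are arrays and bars are group means. Cluster 10565486 of Eed falls in N2B27 in both genotypes while cluster 10554837 stays near 0, and cluster 10546706 of Rybp lies higher on all mutant than on all control arrays in N2B27.

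How the mutant cells differ from control cells was asked in each medium. In N2B27, 1 of the 10 genes, Mtf2, was called higher in mutant cells and none lower, where 5.74% of all genes were called, 4.1% higher and 1.64% lower. The difference was 0.38 (SE 0.09, adjusted p = 0.0415), or 1.30-fold, and all 3 mutant arrays (-0.26 to 0.00) lay above all 3 control arrays (-0.58 to -0.53). The call did not hold with the replicate block (0.38, adjusted p = 0.0599), with the 2 groups alone (0.0845), with arrays centred on their medians (0.0577) or after quantile normalization (0.0743). Leaving out single arrays gave differences from 0.30 to 0.43 with adjusted p from 0.0207 to 0.123. It was lost in 8 of those 11 fits, all but those without control replicate 1 or 2 in ESC medium or mutant replicate 2 in N2B27. The 8 ESC marker genes had a median difference of 0.37 in N2B27, and 4 of the 8 were called higher in mutant cells. Of 8 trophoblast markers, 2 were higher in mutant cells (median difference 0.30), as was 1 neural progenitor marker (1.27), while 1 fibroblast and feeder marker (-0.58) and 1 primitive endoderm marker (-0.51) were lower. The part of these cell types in the Mtf2 value was not tested.

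Rybp and Jarid2 also lay higher on every mutant than on every control array in N2B27, and arrays of the genotypes did not overlap, in either direction, for 20.2% of all genes. Their differences were 0.27 (SE 0.09, adjusted p = 0.113) and 0.20 (SE 0.09, adjusted p = 0.289), not called. For Rybp, cluster 10546706 was called alone, at 0.46 (adjusted p = 0.0156), with 0.00, -0.03 and -0.22 on mutant arrays and -0.65, -0.52 and -0.46 on control arrays. Its cluster 10410209 differed by 0.08 (adjusted p = 0.799), and the gene value was called without mutant replicate 3 in N2B27 (0.38, adjusted p = 0.0178). Cbx7 differed by -0.23 (SE 0.09, adjusted p = 0.195) and Ezh1 by -0.32 (SE 0.23, adjusted p = 0.529). Without mutant replicate 2 in N2B27 the Ezh1 difference was -0.01. The other 5 genes differed by -0.01 (Ezh2) to 0.17 (Phf1).

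In ESC medium none of the 10 genes was called between mutant (n = 2) and control (n = 3) by limma, where 6.14% of all genes were (3.09% higher, 3.05% lower), and none reached an unadjusted p under 0.05. Differences ran from -0.14 for Cbx7 to 0.24 for Phf19. Phf19 read 0.12 and 0.27 on mutant and 0.00, -0.16 and 0.01 on control arrays, with a 95% interval of the difference from -0.05 to 0.54. Groups did not overlap for Ezh2, Suz12 and Phf19, higher in mutant, and Cbx7, lower in mutant, which makes 4 of 10 beside 39.4% of all genes. The difference of Ezh2 was 0.07, with a 95% interval from -0.15 to 0.29.

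**Figure D4:**
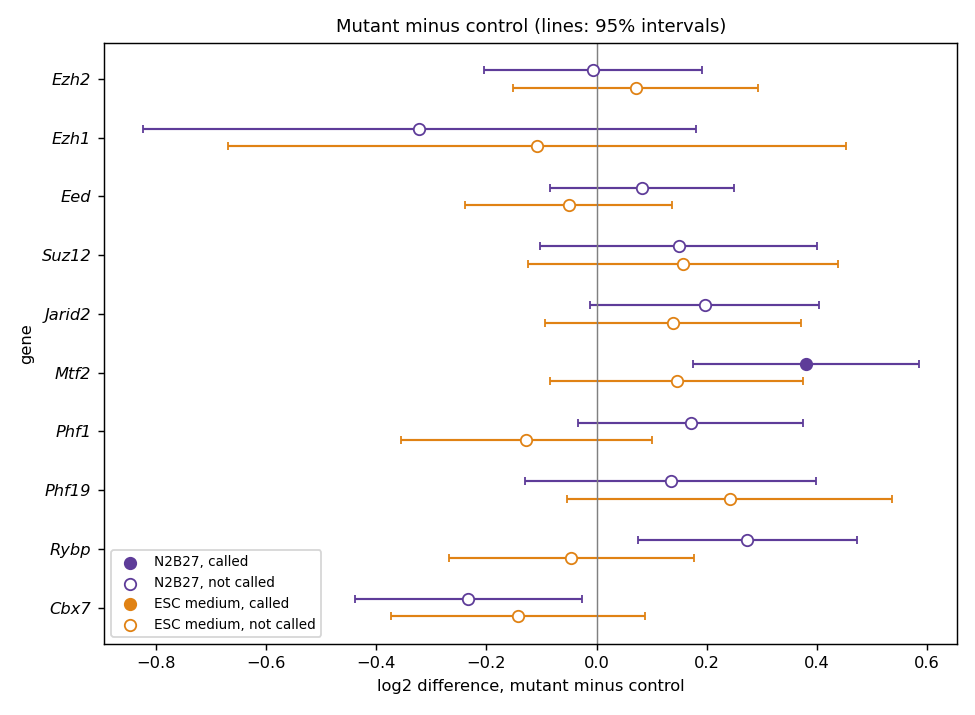
Log2 differences between mutant and control cells (x axis) for the 10 genes (y axis), in N2B27 (purple) and ESC medium (orange), with 95% intervals; filled points were called. Mtf2 in N2B27 is the filled point, at 0.38, and the 10 intervals in ESC medium all include 0.

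Whether the response to N2B27 differed between genotypes was tested by the interaction, in which the genotype difference in ESC medium is subtracted from the one in N2B27. None of the 10 genes was called by limma, where 2.12% of all genes were (1.57% higher, 0.552% lower), and Rybp was the gene with an unadjusted p under 0.05. Its interaction was 0.32 (SE 0.13, adjusted p = 0.318), and that of its cluster 10546706 alone was 0.52 (adjusted p = 0.0816). Phf1 followed at 0.30 (SE 0.14, adjusted p = 0.385) and Mtf2 at 0.23 (SE 0.14, adjusted p = 0.528). For Ezh1 it was -0.21, with a 95% interval from -0.97 to 0.54, too wide to compare the rise in the 2 genotypes.

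Genes with the most similar profiles were sought for the 3 members whose group means ranged most, by the root mean square difference over the 11 arrays after removing each gene's mean, among 17043 other named genes. For Mtf2 they were Bclaf3, Ptcd3 and Ubxn2a (0.0954, 0.103 and 0.106, where Mtf2 itself varied by 0.60). For Jarid2 they were the mismatch repair gene Msh6 (0.073), Trim6 (0.0791) and Cnot10 (0.0851, against 0.424 for Jarid2). For Ezh1 they were Klhl24, Rnf13 and Gpr137b (0.0959, 0.104 and 0.112, against 0.493 for Ezh1). The search used all 11 arrays, mutant replicate 2 in N2B27 included. Eed was ranked among the members by the mean of its 2 clusters, not by the cluster that fell most.

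The other subunits of PRC2 include Epop, an accessory factor of ESCs that links PRC2 to elongins, which fell with Mtf2 and Jarid2. It read -0.37, 0.00 and -0.71 on mutant arrays in N2B27 and 1.39 and 1.11 in ESC medium. On control arrays it read -0.38, -0.38 and -0.59 in N2B27 and 0.96, 0.82 and 0.74 in ESC medium. Epop fell by 1.61 in mutant (SE 0.18, adjusted p = 0.000165) and by 1.29 in control cells (SE 0.16, adjusted p = 0.000317). Of the 6 further PRC2 genes measured, Epop alone was called in mutant cells, and Epop and Lcor (-0.38, adjusted p = 0.0285) in control cells. Lcor, whose locus also encodes a PRC2 cofactor, was not called without control replicate 1 in ESC medium or any 1 control array in N2B27, with adjusted p from 0.0535 to 0.105. The histone-binding genes Rbbp4 and Rbbp7 and the accessory gene Aebp2 were not called in either genotype, with differences from -0.29 to 0.10. The counts shifted with the fit, to 3 of the 6 in mutant cells without mutant replicate 2 in N2B27, and to 4 of the 6 in control cells without that array or with the replicate block.

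Of 8 genes for the E3 ligases and PCGF subunits at the core of PRC1, 3 fell in mutant cells, where 10.3% of all genes did, and none was called in control cells (medians -0.01 and -0.07). With the replicate block 1 of the 8 rose in control cells. Leaving out single arrays gave 0 to 2 higher and 0 to 1 lower in control cells. The falls were in Pcgf6, of a variant complex active in ESCs (-0.43, adjusted p = 0.00732), Bmi1 (-0.37, adjusted p = 0.0201) and the ligase gene Rnf2 (-0.30, adjusted p = 0.0395). All 3 calls were lost without mutant replicate 2 in ESC medium (adjusted p = 0.0726, 0.115 and 0.199). Those of Bmi1 and Rnf2 were lost after quantile normalization (0.07 and 0.0786), without mutant replicate 3 in ESC medium (0.0914 and 0.123) and without mutant replicate 3 in N2B27 (0.059 and 0.112), and that of Rnf2 was lost in 8 of the 11 leave-one-out fits in all. Of 7 further canonical PRC1 genes, 3 rose and 2 fell in mutant and 1 rose and 1 fell in control cells, where 25.2% and 26.1% of all genes were called. Without mutant replicate 2 in ESC medium 1 rose and 1 fell in mutant cells, and over all leave-one-out fits the counts ran from 1 to 4 higher and 1 to 2 lower in mutant and from 1 to 2 higher and 0 to 1 lower in control cells. Phc2, of the polymerising Polyhomeotic family, rose by 0.48 (adjusted p = 0.00293) in mutant and 0.40 (adjusted p = 0.00467) in control cells.

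Variant PRC1 genes went both ways, with 4 higher and 4 lower of 15 in mutant and 4 higher and 5 lower in control cells, beside 25.2% and 26.1% of all genes called. Leaving out mutant replicate 2 in ESC medium gave 1 higher and 3 lower in mutant cells, leaving out mutant replicate 3 there gave 2 and 4, and leaving out control replicate 1 in N2B27 gave 4 and 3 in control cells. L3mbtl2, a reader in the PCGF6 complex, fell by 0.70 in mutant (adjusted p = 0.000622) and 0.78 in control cells (adjusted p = 0.000199). Auts2, a neural gene whose product turns a variant complex towards activation, rose by 0.89 (adjusted p = 0.00467) and 0.82 (adjusted p = 0.00418). Its mutant call was lost without mutant replicate 2 in ESC medium (0.75, adjusted p = 0.0616). X-linked Bcorl1 rose by 0.43 in mutant (adjusted p = 0.0339) and 1.19 in control cells (adjusted p = 0.000101). Its mutant call was lost when either mutant array in ESC medium (0.134 and 0.154) or mutant replicate 2 or 3 in N2B27 (0.0691 and 0.0915) was left out, and after quantile normalization (0.0713). Max, the partner of MYC and a PCGF6 complex member, fell by 0.48 in mutant (adjusted p = 0.00145) and 0.62 in control cells (adjusted p = 0.000214).

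Of the 8 genes of the deubiquitinase complex PR-DUB and its partners, which remove the PRC1 mark, 3 rose and 1 fell in each genotype, beside 25.2% of all genes called in mutant and 26.1% in control cells. In mutant cells 1 rose without mutant replicate 3 in ESC medium, 2 rose and 0 fell without mutant replicate 2 in ESC medium or replicate 1 or 3 in N2B27, and 4 rose without mutant replicate 2 in N2B27. In control cells 2 rose without control replicate 3 in either medium. Foxk2, a DNA-binding partner, rose by 0.59 in mutant (adjusted p = 0.00101) and 0.46 in control cells (adjusted p = 0.00241), while Asxl2 differed by 0.01 in mutant cells (adjusted p = 0.96) and fell by 0.62 in control cells (adjusted p = 0.00099). Of 11 opposing chromatin factors, 4 rose in mutant cells, and 1 rose and 2 fell in control cells, beside the same shares of all genes. In mutant cells 1 rose without mutant replicate 3 in ESC medium. In control cells the counts ran from 0 to 2 higher and 1 to 2 lower with single arrays left out, and 2 rose with the replicate block. The acetyltransferase gene Ep300 rose by 0.63 (adjusted p = 0.00155) in mutant and 0.36 (adjusted p = 0.0175) in control cells, and the control value was not called without control replicate 2 in ESC medium (0.0649) or control replicate 3 in N2B27 (0.0579).

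**Figure D5:**
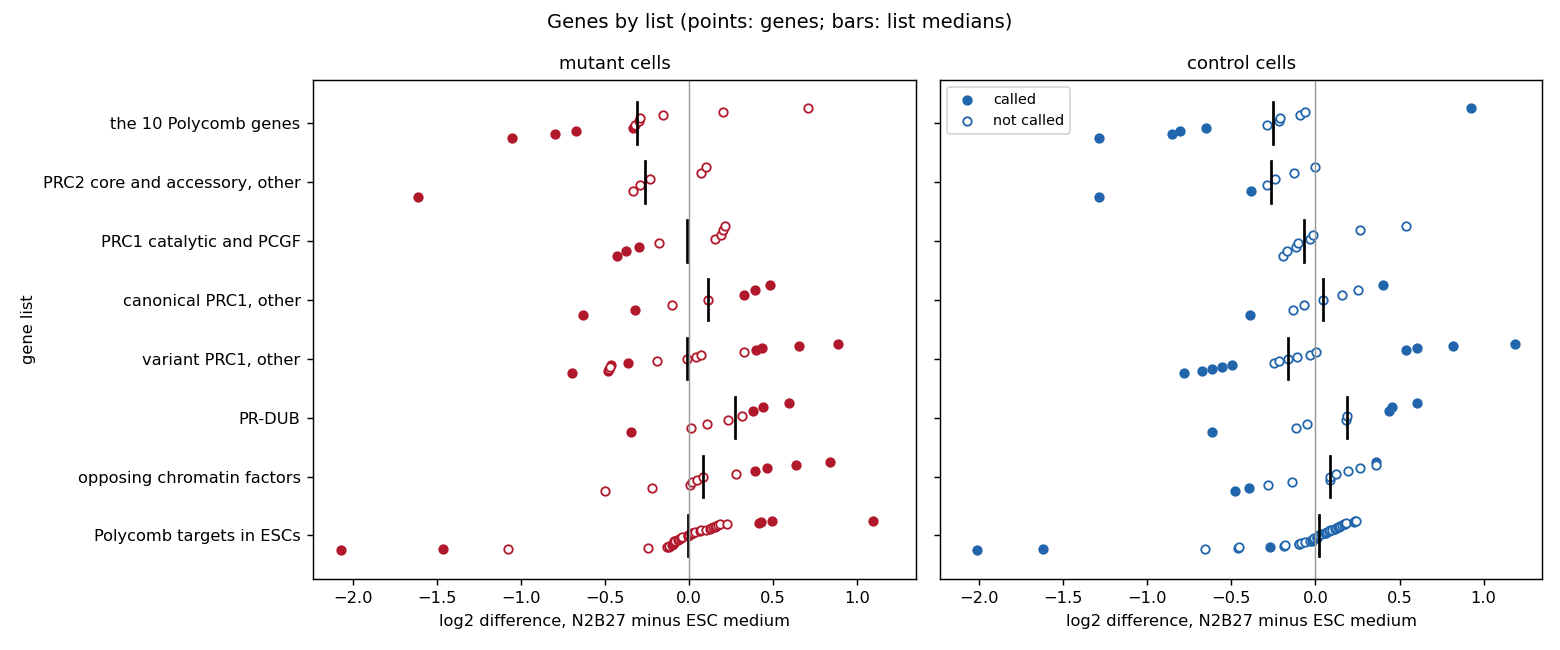
Log2 differences between N2B27 and ESC medium (x axis) of the 10 genes and 7 other lists (y axis) in mutant cells (left) and control cells (right); points are genes, filled where called, and bars are list medians. The further PRC2 genes have medians of -0.26 in both genotypes, and most of the Polycomb target genes lie near 0.

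Of 41 genes known as Polycomb targets in ESCs, 4 rose and 2 fell in mutant cells, where 25.2% of all genes were called. In control cells none rose and 4 fell, where 26.1% of all genes were called. The medians of the targets were -0.01 in mutant and 0.02 in control cells. With the replicate block 2 rose and 5 fell in control cells, where Irx3 (0.23, adjusted p = 0.0264) and Eomes (-0.66, adjusted p = 0.00771) were then called. Those calls were also made with the control groups alone (0.0141 and 0.0187), with array weights (0.0363 and 0.0164) and without mutant replicate 2 in N2B27 (0.0155 and 0.0467), and that of Eomes without mutant replicate 3 in N2B27 (0.015). In mutant cells 1 rose without mutant replicate 2 or 3 in ESC medium. The list's falls included Tbx3, also a naive pluripotency gene, at -2.07 (adjusted p = 8.25e-05) in mutant and -1.62 (adjusted p = 0.000184) in control cells. Among the rises in mutant cells were Eomes, of mesoderm and trophoblast (1.10, adjusted p = 0.0276), and Irx3 (0.49, adjusted p = 0.0181). Both calls were lost when mutant replicate 2 or 3 in ESC medium was left out, with adjusted p from 0.0551 to 0.141, and that of Eomes without mutant replicate 1 in N2B27 (0.0722). They were lost too with the mutant groups alone (0.0998 for Eomes and 0.104 for Irx3) and after quantile normalization (0.0772 and 0.0763), and that of Eomes with the replicate block (0.0802) and with array weights (0.53, adjusted p = 0.124). In mutant cells the replicate block leaves out mutant replicate 1 in N2B27, whose number is not shared. The cell cycle inhibitor gene Cdkn2b read 0.45, 0.44 and 0.19 on mutant arrays in N2B27 and -0.14 and 0.00 in ESC medium. On control arrays it read -0.09, -0.21 and -0.19 in N2B27 and 0.32, 0.41 and 0.16 in ESC medium. It thus rose by 0.43 (adjusted p = 0.0111) in mutant cells and fell by 0.46 (adjusted p = 0.00432) in control cells, and its interaction was 0.88 (SE 0.14, adjusted p = 0.0131). That call was lost without mutant replicate 2 in ESC medium (0.82, adjusted p = 0.0826), as was its rise in mutant cells (0.36, adjusted p = 0.113), which was not called with the replicate block either (0.38, adjusted p = 0.103).

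Called between genotypes in ESC medium were 1 of 6 other PRC2 genes, 1 of 8 PRC1 core genes and 1 of 11 opposing factors. None of the 7 canonical PRC1, 15 variant PRC1, 8 PR-DUB or 41 target genes was called, beside 6.14% of all genes. Bmi1 was higher in mutant than in control cells by 0.67 (adjusted p = 0.00391), and Rbbp4 was lower by 0.29 (adjusted p = 0.0346). X-linked Kdm6a, a demethylase gene that opposes PRC2, was higher by 0.78 (adjusted p = 0.025). Bmi1 read 0.57 and 0.55 on mutant and 0.01, -0.15 and -0.18 on control arrays, and was not called without mutant replicate 2 (adjusted p = 0.0511). Kdm6a was not called without control replicate 2 or 3 or either mutant array in ESC medium (0.0758 to 0.218) or after quantile normalization (0.0777), nor was Rbbp4 without any 1 of the 5 ESC-medium arrays (0.0504 to 0.211), without control replicate 2 or 3 in N2B27 (0.0582 and 0.0588) or after quantile normalization (0.121). On the same arrays 3 of 8 ESC markers were higher in mutant cells (median difference 0.56), 3 of 8 fibroblast and feeder markers were lower (down to -2.23), and 1 primitive endoderm marker (-0.47) and 1 trophoblast marker (-1.85) were lower. Their part was not tested.

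In N2B27, 3 of 15 variant PRC1 genes, 1 of 8 PR-DUB genes, 1 of 11 opposing factors and 3 of 41 targets were called between genotypes, beside 5.74% of all genes, and no gene of the other 3 lists was. Cdkn2a and Cdkn2b, neighbouring Polycomb targets, were higher in mutant than in control cells by 0.49 (adjusted p = 0.0066) and 0.52 (adjusted p = 0.0108). X-linked Bcor and Ogt, and Tfdp1 on chromosome 8, were also called higher (0.70, 0.39 and 0.70), with adjusted p from 0.0359 to 0.0485, as were L3mbtl2 (0.36, adjusted p = 0.0427) and the acetyltransferase gene Crebbp (0.30, adjusted p = 0.0333). Bmp4, a ligand gene and Polycomb target, was lower in mutant than in control cells by 0.97 (adjusted p = 0.024). The calls of Cdkn2a and Cdkn2b held in all 11 leave-one-out fits, while those of Bcor, Ogt, Tfdp1, L3mbtl2, Crebbp and Bmp4 were lost in 9, 8, 10, 8, 5 and 4 of them. The Crebbp call was also lost with the replicate block (adjusted p = 0.0714). Genes of chromosome 8 had a median difference between mutant and control of 0.17 in N2B27 and those of the X of 0.0261, against -0.0047 for the other autosomes. In ESC medium the medians were 0.117 for chromosome 8 and 0.0897 for the X, against -0.0152 for the other autosomes. Of 955 genes on chromosome 8, 242 were called higher and 2 lower in N2B27, and 150 higher and 10 lower in ESC medium. Of 739 genes on the X, 72 were called higher and 16 lower in N2B27, and 163 higher and 11 lower in ESC medium. None of the 10 Polycomb genes lies on these chromosomes.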

How the data were processed

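The authors deposited log2 values for each transcript cluster. The submitters' processing notes name RMA and Affymetrix Expression Console 1.2 as the tools. The base of the log and the centring of each cluster on its own baseline are not stated. The base is taken from the usual output of RMA, and the centring from the values, since 55.8% of the 28815 clusters hold an exact 0. Brightness is thus lost, so the planned filter on dim probes was not run. Clusters were named through the platform annotation (21780 with 1 symbol, 1605 with several, 5430 with none) and clusters of a gene were averaged, which gave 19935 genes. Symbols and chromosomes came from the RefSeq table of GRCm38.p6, in which 21689 clusters matched by Entrez identifier. Group means of all 4 groups were fitted with limma 3.58.1 in R 4.3.3 (7 residual degrees of freedom, prior 3.02), which was tested on simulated data. Leave-one-out fits that leave 1 mutant array in ESC medium assume that it varies like the other groups.

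The members and lists were chosen with earlier results of these data known. From each list up to 4 called genes with the largest differences could be named, and some are left out here; Bmpr1a and the closest profiles of the 3 members with the widest group means were also named. Genes given without being called were chosen after their values were seen. Some genes of the lists are not reported here. Sample numbers were taken to pair arrays where every same-numbered pair of deviations from group means correlated above 0.1 over 3 pairs. That held in control cells across media (0.138, 0.181 and 0.131) and in N2B27 across genotypes (0.256, 0.43 and 0.158). Mutant cells across media share only numbers 2 and 3 (0.215 and 0.266), short of 3 pairs. Correlations between differently numbered arrays were not computed. The main fit, and the counts of calls from it, leave this pairing out, and the replicate block takes it in. The block was fitted to the compared groups alone, on the sample numbers that all of them share. It leaves out control replicate 1 for genotype in ESC medium and mutant replicate 1 in N2B27 for medium in mutant cells. For the interaction it leaves out every array numbered 1. The effect of the block was not told apart from that of the arrays left out. Alternatives were leaving out each array, the compared groups alone, the replicate block, median centring, quantile normalization, array weights and clusters tested singly. Quantile normalization was run on the centred values, so it makes their spread around the baseline the same on every array. Differences in that spread between the groups are removed with it.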

Additional observations from a re-analysis of the deposited data

How the results depend on the processing

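Of 850 alternative values of the 10 genes' differences, 810 kept their direction and side of the threshold or stayed uncalled, 21 lost a call and 19 gained one, and no called value changed sign. The main fit called 4 of the 10 genes for medium in mutant cells, 5 in control cells and 1 for genotype in N2B27. Most of the 850 are thus alternatives of uncalled differences, and the 21 lost calls come from the few called ones. With the replicate block, 2 of the 10 genes were called between genotypes in ESC medium (Jarid2 0.25, adjusted p = 0.0464, and Phf19 0.27, adjusted p = 0.039) and none in N2B27. In ESC medium only 2 arrays a group share numbers, with pair correlations of 0.0365 and 0.284, so the numbers were not taken as pairs. Beyond these and Mtf2 between genotypes in N2B27 and Suz12 between media in control cells, the block changed no other call of the 10 genes. Over all genes the block gave 3570 calls for genotype in ESC medium and 796 for the interaction, against 1224 and 422. Both of these block fits leave out the arrays numbered 1. Array weights gave 3138 and 2882 for genotype in ESC medium and in N2B27, 7689 for medium in mutant cells (7 of the 10 genes) and 1782 for the interaction, against 1224, 1144, 5018 (4 of 10) and 422. Quantile normalization gave 491 for genotype in ESC medium and 172 for the interaction, and the compared groups alone 397 for genotype in N2B27. In N2B27, 0 of the 10 genes were called between genotypes with the replicate block, with arrays centred on their medians, after quantile normalization and with the compared groups alone. With single arrays left out, calls ran from 304 to 1707 for genotype in ESC medium, 454 to 1251 in N2B27, 2720 to 5956 for medium in mutant cells, 3987 to 6044 in control cells and 59 to 633 for the interaction. Members called ran from 3 to 5 for medium in mutant, 5 to 6 in control, 0 to 1 for genotype in N2B27 and stayed at 0 in the other 2. The causes of these shifts were not tested. The planned filter on dim probes and choice of the brightest cluster were not run on centred values. Signal over background is unknown in centred values.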
